A study of Mus musculus with 8 samples.

Results

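Immediate early genes are switched on within minutes of a stimulus from factors already present in the cell, without new protein synthesis. Growth factor, calcium and stress kinases act on SRF, CREB and related factors at their promoters. The first products include AP-1, EGR and NR4A transcription factors, and the same wave carries its own brakes, such as phosphatases, RNA decay factors and inhibitors of signalling. In skeletal muscle, the enzymatic dissociation that frees muscle stem cells from the fibre is itself a known trigger of this programme and of the heat shock response. RNA from freshly sorted muscle stem cells is known to carry both.

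Described here are 40 genes of these programmes, of 57180 in the count table. The list is a set of gene names and its rule uses no measured value, but it was drawn up with earlier results of these data known. All 40 were found by symbol and passed the filter on low counts. They fall by role into 9 AP-1 proteins and partners, 13 other transcription factors, 14 feedback and growth arrest genes and 4 heat shock genes. RNA was sequenced from mouse muscle stem cells, which lie beneath the sheath of the fibre and rebuild it after injury, straight after sorting by flow cytometry. The 4 control libraries (replicates 2, 5, 7 and 8) are labelled wild type. The other 4 libraries (replicates 5, 6, 7 and 8), called RhoA het here, come from SC-RhoAfl/+ mice, which keep an intact RhoA allele, and carry the genotype label RhoA knockdown. The Cre driver, any inducing agent, the age of the mice, the dissociation protocol and the meaning of the replicate numbers are not given in the sources used here. Nothing in those sources says that each library comes from a separate mouse, so p-values measure the spread between these libraries. No undissociated muscle was among the libraries, so induction by dissociation itself could not be measured.

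Totals ranged from 19138763 to 25606342 assigned fragments per library. Levels of 1 gene across libraries are given in CPM, counts scaled to a common library total with TMM factors, always in the order control 2, 5, 7 and 8, then RhoA het 5, 6, 7 and 8. Rhoa, the targeted gene, stood at 383, 309, 273 and 334 CPM (control) and 253, 271, 253 and 282 CPM (RhoA het). The groups overlapped for Rhoa (log2 fold change -0.29, SE 0.13, unadjusted p 0.0495, edgeR quasi-likelihood test; adjusted p 1). All 12 muscle stem cell markers, Pax7 and Myf5 among them, were present, and summed to 8972 to 17339 CPM per library. Markers of fibro-adipogenic cells summed to 4511 to 10808 CPM, and their part in the values given here was not tested. Of the immune markers, C1qa, C1qb, Itgam and Cd3e were at 0 in at least 1 library, as was Tnnc2 of the myofibre markers. In bulk RNA, fewer cells of a type and less RNA per cell cannot be told apart. Control 2 and RhoA het 6 held 14358 and 14659 fragments of 4 Y-linked genes and at most 7 of Xist, whereas each of the remaining 6 libraries held 2 or fewer Y-linked and at least 3539 Xist fragments.

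The upstream sequence of several members carries short elements to which the regulators of this response are known to bind. RefSeq windows from 250 bases before to 50 bases after the transcription start (assembly GRCm38.p6, not the mm39 assembly of the counts) matched 34 of the 40 genes by symbol, with 45 windows because some genes have several starts. Fosl1, Egr1, Egr3, Myc, Cebpd and Ier2 had no window in the table. Windows of 1 gene can overlap, so they are not independent. TGACG, the core of the cyclic AMP response element read by CREB and ATF proteins, occurred on either strand in 24 of 45 windows (53.3%), against 20.8% of all 32851 windows of this length. Its palindrome TGACGTCA, which contains TGACG on both strands, occurred in 4 windows (8.89% against 1.79%). The EGR element GCGNGGGCG occurred in 11 windows (24.4% against 5.55%), and the CArG box of SRF in 5 windows, belonging to Egr2 and Zfp36 (11.1% against 1.63%). The AP-1 element TGACTCA occurred in 1 window, of Csrnp1 (2.22% against 5.2%), the heat shock unit GAANNTTC in 6 (13.3% against 7.86%) and TATAAA in 10 (22.2% against 13.6%). A match describes letters and does not show a bound site.

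Fos is shown as one of the most abundant members, and Nr4a1, Nr4a2 and Btg2 as members that differed strongly between replicate numbers. Capitals mark each TGACG, read CGTCA where it lies on the other strand, and in Btg2 the TGACGTCA palindrome. The stretch of Fos runs from 141 to 50 bases before its start, that of Nr4a1 from 245 to 24, that of Nr4a2 from 212 to 95 and that of Btg2 from 206 to 119. 
Fos, chr12:85473749-85473840, plus strand: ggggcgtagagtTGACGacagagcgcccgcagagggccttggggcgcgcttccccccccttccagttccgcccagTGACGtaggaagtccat
Nr4a1, chr15:101266601-101266822, plus strand: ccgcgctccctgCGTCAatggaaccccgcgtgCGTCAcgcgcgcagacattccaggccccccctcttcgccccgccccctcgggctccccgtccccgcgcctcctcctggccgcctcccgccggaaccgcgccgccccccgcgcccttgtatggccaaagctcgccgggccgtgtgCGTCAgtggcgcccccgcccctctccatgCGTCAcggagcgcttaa
Nr4a2, chr2:57124098-57124215, minus strand: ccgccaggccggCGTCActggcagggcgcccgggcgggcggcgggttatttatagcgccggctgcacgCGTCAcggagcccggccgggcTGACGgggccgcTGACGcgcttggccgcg
Btg2, chr1:134079274-134079361, minus strand: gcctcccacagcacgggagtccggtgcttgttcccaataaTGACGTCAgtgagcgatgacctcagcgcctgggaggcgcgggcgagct

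Egr2 and Zfp36 are shown because, of the 34 members with a window, they held a CArG box, in capitals with other elements left unmarked, which lies in stretches from 112 to 23 and from 98 to 9 bases before their starts. 
Egr2, chr10:67537757-67537846, plus strand: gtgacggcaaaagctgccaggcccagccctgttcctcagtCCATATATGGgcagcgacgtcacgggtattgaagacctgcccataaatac
Zfp36, chr7:28379237-28379326, minus strand: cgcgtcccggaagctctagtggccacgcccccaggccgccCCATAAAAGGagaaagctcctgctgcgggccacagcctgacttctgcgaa

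Hspa1a and Hspa1b, the adjacent inducible chaperone genes, are shown because their values in these libraries moved together. Capitals mark the GAANNTTC unit, and both stretches run from 144 to 57 bases before the start. The 2 stretches as printed have the same letters, and over the whole 250 bases upstream 247 were identical between the genes. 
Hspa1a, chr17:34972213-34972300, minus strand: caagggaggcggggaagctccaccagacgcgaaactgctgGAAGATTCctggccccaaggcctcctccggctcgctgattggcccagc
Hspa1b, chr17:34959295-34959382, minus strand: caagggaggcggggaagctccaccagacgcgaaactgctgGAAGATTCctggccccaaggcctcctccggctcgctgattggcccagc

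Most of the 40 genes were abundant transcripts of these cells. Their deposited TPM values, which allow for gene length and so compare genes, summed to 6.67%, 4.45%, 7.45% and 5.51% of all TPM in control and to 4.10%, 7.08%, 6.23% and 6.21% in RhoA het. The lowest share in each group was that of the library numbered 5. By mean TPM over 8 libraries, 15 of the 40 ranked within the first 100 of all genes, 30 within the first 500 and 34 within the first 1000. The 6 outside the first 1000 were Cebpb, Jund, Ier5, Egr3, Nr4a3 and Klf2, the last ranking 5380. At the top stood Junb at 6836 TPM, the sixth most abundant of all genes, followed by Egr1 at 6028 and Fos at 5224 TPM. At the bottom stood Egr3 at 25.9, Nr4a3 at 22.3 and Klf2 at 17.7 TPM. The ratio of the highest to the lowest library, in CPM, ran from 1.66 to 6.20 with a median of 2.51.

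**Figure D1:**
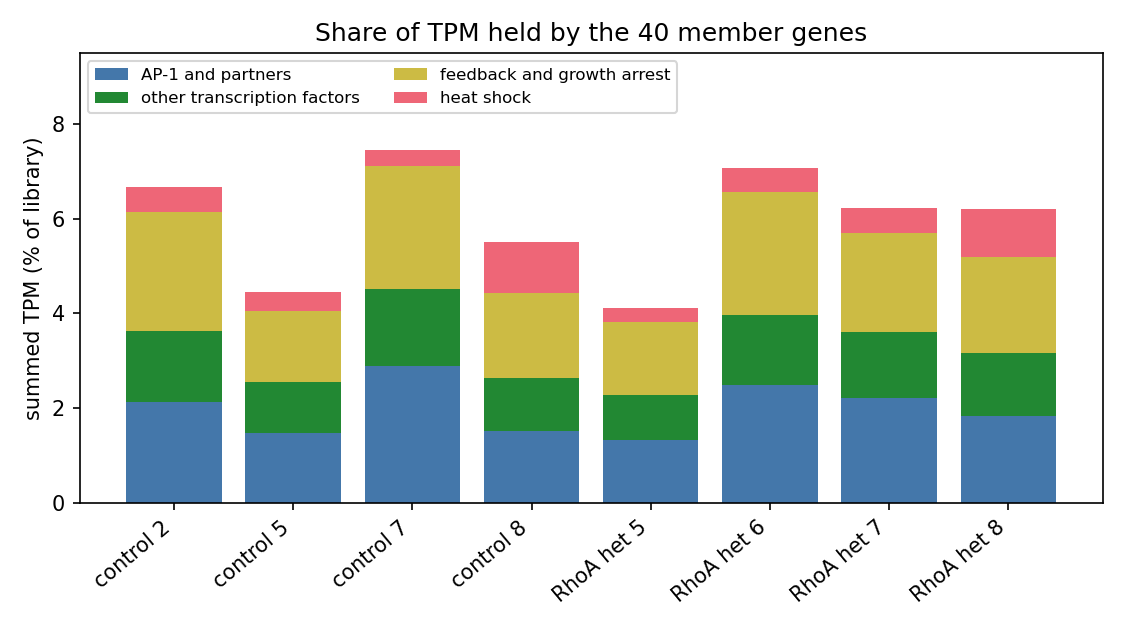
Summed TPM of the 40 genes as a percentage of each library, stacked by role, for the 4 control and 4 RhoA het libraries. The libraries numbered 5 are lowest, at 4.45% and 4.10%, and the heat shock part is tallest in both libraries numbered 8.

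These are compact genes. The median member spanned 4348 bases in the mm39 annotation of the count table and had 3 exon blocks, against 19266 bases and 8 blocks over all genes tested, and 22 of 40 (55.0%) spanned under 5000 bases, against 22.1% of all genes. Jun, Jund, Cebpb, Cebpd, Ier2, Ier5, Zfp36, Hspa1a and Hspa1b lie in 1 exon block each. Exons of 13 members overlap a gene on the opposite strand (for example Junb with Prdx2, Dusp1 with Ergic1 and Ppp1r15a with Tulp2), and the counting set no strand, so fragments from such partners cannot be separated.

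The genotype comparison asked whether these genes differed between RhoA het and control, and no member passed the test. None of the 40 passed an adjusted p of 0.05 (0% of the 15660 genes tested passed; edgeR quasi-likelihood test, Benjamini-Hochberg), and 0 of 40 had an unadjusted p under 0.05, where 2.38% of all genes did. DESeq2 also gave 0 members at either threshold. The median member log2 fold change was -0.05, beside -0.00071 over all genes, with 16 members higher and 24 lower. That split depended on the scaling: with total counts in place of TMM it was 22 higher and 18 lower, and with limma on log2(TPM + 1) 27 higher and 13 lower. The median of all genes moved with it, to 0.042 and 0.068, beside member medians of 0.017 and 0.065. The change of sign is thus not particular to the members. Single libraries moved the split as well: it was 30 higher and 10 lower without control 2, and 7 higher and 33 lower without control 5. The 2 groups overlapped in CPM for all 40 members, whereas 1.81% of all genes tested had groups that did not overlap.

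Libraries with the same number resembled each other, and a fit that blocked on the replicate number (pairs 5, 7 and 8) gave narrower intervals. In it 0 of 40 members changed (0.0127% of 15714 genes did; lowest member adjusted p 0.931 in edgeR), and 0 of 40 had an unadjusted p under 0.05, beside 5.26% of all genes. The member median was -0.0031, with 20 higher and 20 lower. The 95% interval of each of the 40 members lay within a 2-fold change either way, as did those of 33 members in the fit of 8 libraries. In all 3 pairs RhoA het was the higher library for 8 members (20.0%; Jun, Egr3, Klf2, Klf4, Nr4a3, Btg1, Zfp36l1 and Gadd45a), beside 13.7% of all genes, and the lower for 3 (7.5%; Maff, Csrnp1 and Zfp36), beside 12.5%.

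**Figure D2:**
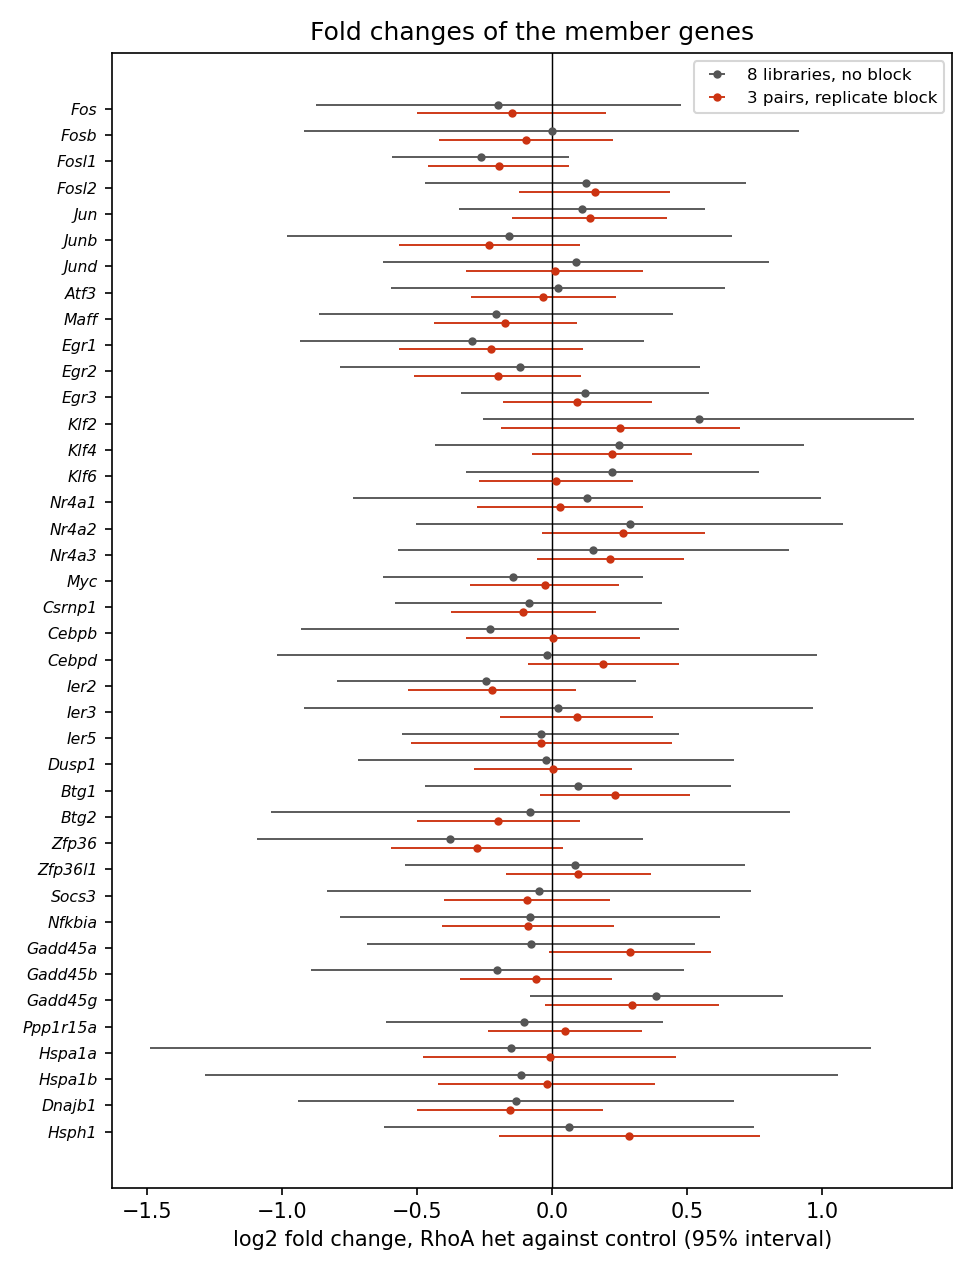
Log2 fold change of each of the 40 genes, RhoA het against control, with 95% intervals, for all 8 libraries without a block (grey) and for 3 pairs with the replicate block (red). Every interval includes 0, and the red intervals are all inside 1 unit of log2 on either side.

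Among the AP-1 genes, Fos, the partner that joins JUN proteins in the AP-1 dimer, stood at 5045, 2802, 6002 and 2654 CPM (control) and 2619, 4439, 4191 and 3131 CPM (RhoA het). The highest library was control 7 and the lowest RhoA het 5, and the groups overlapped (log2 fold change -0.20, SE 0.30, unadjusted p 0.525 in edgeR). Its paralogue Fosb stood at 6342, 3423, 7288 and 2496 CPM (control) and 3273, 7681, 5708 and 2870.1 CPM (RhoA het). Here the libraries numbered 8 were the lowest of each group, and the group means were level, at 4887 ± 2291 CPM for control and 4883 ± 2247 for RhoA het (SD, n = 4). Junb, a JUN protein that often restrains proliferation, stood at 6719.5, 2783, 7285 and 4229.9 CPM (control) and 2399, 6801, 5072 and 4569 CPM (RhoA het). Both libraries numbered 5 lay below every other library (log2 fold change -0.16, SE 0.37, unadjusted p 0.678 in edgeR).

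Fosl1, a FOS protein usually induced later than Fos, had the lowest unadjusted p of the members that were lower in RhoA het. Its values were 344, 254, 242 and 253 CPM (control) and 198, 244, 246 and 222 CPM (RhoA het). Control 2 alone stood above the rest, and the group difference was within the spread (log2 fold change -0.26, SE 0.15, unadjusted p 0.103 in edgeR; two-sided exact permutation p 0.0857, smallest possible 0.0286). The other 5 genes of this role ranged over 1578 to 2616 CPM (Jun), 21.8 to 61.3 CPM (Jund), 495 to 1023 CPM (Fosl2), 565 to 1234 CPM (Atf3, a stress-induced partner of JUN proteins) and 468 to 1205 CPM (Maff, a small MAF protein). Their log2 fold changes lay between -0.21 (Maff) and 0.12 (Fosl2).

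Egr1, a zinc finger factor and classic target of SRF, led the other transcription factors. It stood at 12738, 5903, 11538 and 7568 CPM (control) and 5207, 9388, 8032 and 8097 CPM (RhoA het). Control 2 and 7 were highest and both libraries numbered 5 lowest, and the log2 fold change of -0.30 (SE 0.28) had an unadjusted p of 0.321 in edgeR. Klf2, a Krüppel-like factor best known from endothelium, had the largest fold change of the list, at the lowest level. Its values were 7.87, 4.37, 10.6 and 10.4 CPM (control) and 6.62, 18.8, 11.97 and 11.2 CPM (RhoA het). The highest library was RhoA het 6, which also had the highest level of each of 10 endothelial markers (692 CPM summed, against 74.3 to 169.9 CPM in the other 7). It was also highest for 5 of 5 erythroid markers (319 CPM summed, against 1.86 to 143 CPM), 7 of 10 immune and 6 of 14 myofibre markers. The count was 3 of 12 for muscle stem cell, 3 of 10 for fibro-adipogenic, 1 of 8 for mural, 1 of 6 for Schwann cell and 0 of 15 for cycling-cell markers. The part of any of these cells in the Klf2 value was not tested. Over 8 libraries the Klf2 log2 fold change was 0.54 (SE 0.36, unadjusted p 0.16 in edgeR), and in the block fit, which does not hold RhoA het 6, it was 0.25 (95% interval -0.19 to 0.69).

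Klf6, which is widely induced by injury, stood at 793, 1211, 1302 and 699.7 CPM (control) and 1147, 1449, 1233 and 847 CPM (RhoA het). Both libraries numbered 8 and control 2 were low (log2 fold change 0.22, SE 0.24, unadjusted p 0.379 in edgeR), and in the 6 paired libraries without the block the log2 fold change turned to -0.016. Myc, the growth regulator, was among the steadier members at 3275, 1803, 2245 and 1986 CPM (control) and 1681, 2374, 2344 and 2025 CPM (RhoA het). Only control 2 stood clearly above the rest (log2 fold change -0.14, SE 0.21, unadjusted p 0.518 in edgeR). The NR4A orphan nuclear receptors ranged over 514 to 1715 CPM (Nr4a1), 115 to 369 CPM (Nr4a2) and 25.2 to 66.5 CPM (Nr4a3). The C/EBP factors ranged over 31.03 to 93.3 CPM (Cebpb) and 398 to 1711 CPM (Cebpd), and Csrnp1, a nuclear protein of immediate early type, over 695 to 1392 CPM. For Nr4a2 the block fit gave 0.26 (95% interval -0.04 to 0.57), with RhoA het higher in 2 of 3 pairs.

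Among the feedback genes, Zfp36, which binds AU-rich messages and hastens their decay, stood at 7174, 2538, 5515 and 4621 CPM (control) and 2470.1, 4949.9, 3823 and 4034 CPM (RhoA het). RhoA het was the lower library in all 3 pairs, yet the libraries numbered 5 differed little, and neither fit passed (log2 fold change -0.38, SE 0.32, unadjusted p 0.264; block fit -0.28 (95% interval -0.60 to 0.04); edgeR). Gadd45g, a stress sensor tied to growth arrest, had the lowest unadjusted p among members higher in RhoA het. It stood at 175, 119, 159 and 175 CPM (control) and 172, 247, 146 and 256 CPM (RhoA het). RhoA het 6 and 8 were above every control, whereas RhoA het 5 and 7 lay inside the control range (log2 fold change 0.39, SE 0.21, unadjusted p 0.0959 in edgeR; two-sided exact permutation p 0.257). With total counts, and with limma on TPM, Gadd45g was the 1 member with an unadjusted p under 0.05 (0.0463 in edgeR and 0.0349 in limma), beside 2.18% and 2.08% of all genes.

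Nfkbia, the inhibitor that holds NF-kB in the cytoplasm and is itself an NF-kB target, stood at 2483, 1098, 1830.2 and 1184 CPM (control) and 1227, 2400.4, 1374 and 1229.9 CPM (RhoA het). Control 2 and RhoA het 6, the libraries with Y-linked fragments, were the highest (log2 fold change -0.08, SE 0.31, unadjusted p 0.8 in edgeR). Ier2, a short immediate early gene, stood at 1449, 914, 1775 and 917 CPM (control) and 859, 1253, 1223 and 936 CPM (RhoA het). Control 7 was its highest library (log2 fold change -0.24, SE 0.25, unadjusted p 0.349 in edgeR). Ppp1r15a, the phosphatase subunit that restores translation after stress, stood at 3160.3, 1509, 2227 and 2226 CPM (control) and 1675, 2263, 2093 and 2467 CPM (RhoA het). Control 5 and RhoA het 5 were its lowest libraries (log2 fold change -0.10, SE 0.23, unadjusted p 0.665 in edgeR).

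The remaining feedback members showed ranges of 1222 to 2914 CPM for Dusp1, a phosphatase of stress kinases, 469.5 to 1059 CPM for Btg1, 1126 to 2379 CPM for Zfp36l1, 306 to 881 CPM for Socs3, the inhibitor of cytokine receptors, 151 to 570.1 CPM for Ier3 and 54.3 to 96.8 CPM for Ier5. Gadd45b ranged over 245 to 698 CPM. Gadd45a had the lowest unadjusted p of the 40 in the block fit, 0.057, at 0.29 (95% interval -0.01 to 0.59) in edgeR. Over 8 libraries its log2 fold change was -0.08, so the sign differed between the fits.

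The heat shock genes differed widely between libraries, and Hspa1a had the largest ratio of highest to lowest library of the 40, 6.20. Hspa1a (ENSMUSG00000091971.4; mm39 chr17:35188166-35191132, minus strand), the main stress-inducible chaperone of its family, stood at 2900.0, 1366, 1152 and 5794 CPM (control) and 935, 2086, 2006 and 5052 CPM (RhoA het). Both libraries numbered 8 were far above the other 6, and the group means were 2803 ± 2140.4 CPM for control and 2519.9 ± 1768 for RhoA het (SD, n = 4). Hspa1b (ENSMUSG00000090877.4; mm39 chr17:35175412-35178214, minus strand), its near-identical copy, stood at 283, 156, 142 and 605 CPM (control) and 119.6, 251, 229 and 497 CPM (RhoA het). The same libraries were high; since fragments of near-identical copies can be lost or misassigned, the counts of both were also summed, which gave a log2 fold change of -0.15, equal to that of Hspa1a alone.

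Dnajb1, a co-chaperone that stimulates the same chaperone family, stood at 2527, 1435, 1634 and 3515 CPM (control) and 1037, 2252, 2012 and 3008 CPM (RhoA het). It too was highest in the libraries numbered 8 (log2 fold change -0.13, SE 0.36, unadjusted p 0.72 in edgeR). Hsph1, a nucleotide exchange factor for these chaperones, stood at 1391, 1199, 645 and 1999 CPM (control) and 1196, 1101, 1438 and 1734 CPM (RhoA het). Control 7 was its lowest library and control 8 its highest (log2 fold change 0.06, SE 0.31, unadjusted p 0.841 in edgeR). All 4 were highest in number 8 of numbers 5, 7 and 8 in both groups. Summed markers of other cell types were high in the same libraries. The 10 immune markers summed to 358 and 323 CPM in control 8 and RhoA het 8, against 92.6 to 175.1 CPM in the other 6, and the 6 Schwann cell markers to 445 and 533 CPM, against 248 to 404 CPM. The 8 mural cell markers summed to 1356 and 2528 CPM there, against 857 to 1176 CPM in numbers 5 and 7 and 1746 CPM in RhoA het 6. Of the 10 immune markers, however, 7 were highest in RhoA het 6, and 1 of the 4 tested differed by number. The part of these cells in the heat shock values was not tested.

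Most of the 40 genes differed by replicate number. With genotype held in the model, 27 of 40 (67.5%) differed between numbers 5, 7 and 8 at an adjusted p under 0.05, where 11.3% of all genes did (edgeR quasi-likelihood test of the number term, 6 libraries). The count was 6 of 9 AP-1 genes, 10 of 13 other transcription factors, 8 of 14 feedback genes and 3 of 4 heat shock genes. Members not called were Fosl1, Jun, Maff, Nr4a3, Myc, Csrnp1, Ier5, Zfp36l1, Nfkbia, Gadd45a, Gadd45g, Ppp1r15a and Hsph1. The count depended on the libraries numbered 5. Without control 5 the count was 9 members (3.77% of all genes), without RhoA het 5 it was 6 (3.52%), and without both, an alternative chosen after seeing the data, it was 5 (2.31%). With both left out the term compares number 8 with number 7 alone. Those 5 were Fosb, Egr2 and Klf4, lower in number 8 than in number 7, and Hspa1a and Hspa1b, higher in number 8. Each of the 5 was also among the 27.

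Both libraries numbered 5 stood low. Number 5 was the lowest of the 3 numbers in both groups for 26 members, against 19.8% of all genes, and was the highest in both for 0 members, against 19.5%. Number 7 was the highest in both groups for 19 members (14.1% of all genes) and number 8 for 12 (18.4%). Number 7 was the lowest in both for 1 member, Gadd45a (13.8%), and number 8 for 5, namely Fosb, Egr2, Egr3, Klf4 and Klf6 (15.6%). For 25 members every one of the other 6 libraries lay above both libraries numbered 5, which held for 10.6% of all genes tested. The same libraries had the highest cycling-cell markers: the 15 markers summed to 534 CPM (control 5) and 407 CPM (RhoA het 5), against 145.3 to 217 CPM in the other 6. Of these markers 13 of 15 were highest in both, and 14 of 15 differed by number, beside 11.3% of all genes. Bub1, a mitotic checkpoint gene, was at 0 in at least 1 library. Beside the same 11.3% of all genes, markers of other lists differed by number as well: 10 of 13 myofibre markers tested, 7 of 10 fibro-adipogenic, 5 of 6 Schwann cell, 4 of 8 mural, 4 of 4 erythroid, 3 of 10 endothelial, 1 of 4 immune and 6 of 12 muscle stem cell markers. Of numbers 5, 7 and 8, the muscle stem cell sum was highest in both libraries numbered 7 (11399 and 12381 CPM, against 8972 to 10574 CPM), where the fibro-adipogenic sum was lowest (4511 and 7486 CPM, against 8941 to 10808 CPM). The erythroid sum was lowest in both libraries numbered 5, at 1.86 and 2.86 CPM. Of numbers 5, 7 and 8, the myofibre sum was highest in number 5 within each group. It was 552, 255 and 103 CPM in control and 228, 84.3 and 59.9 CPM in RhoA het, although 1 of the 14 markers was above all other libraries in both libraries numbered 5. The part of cycling cells, or of any of these cell types, in the number result was not tested.

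**Figure D3:**
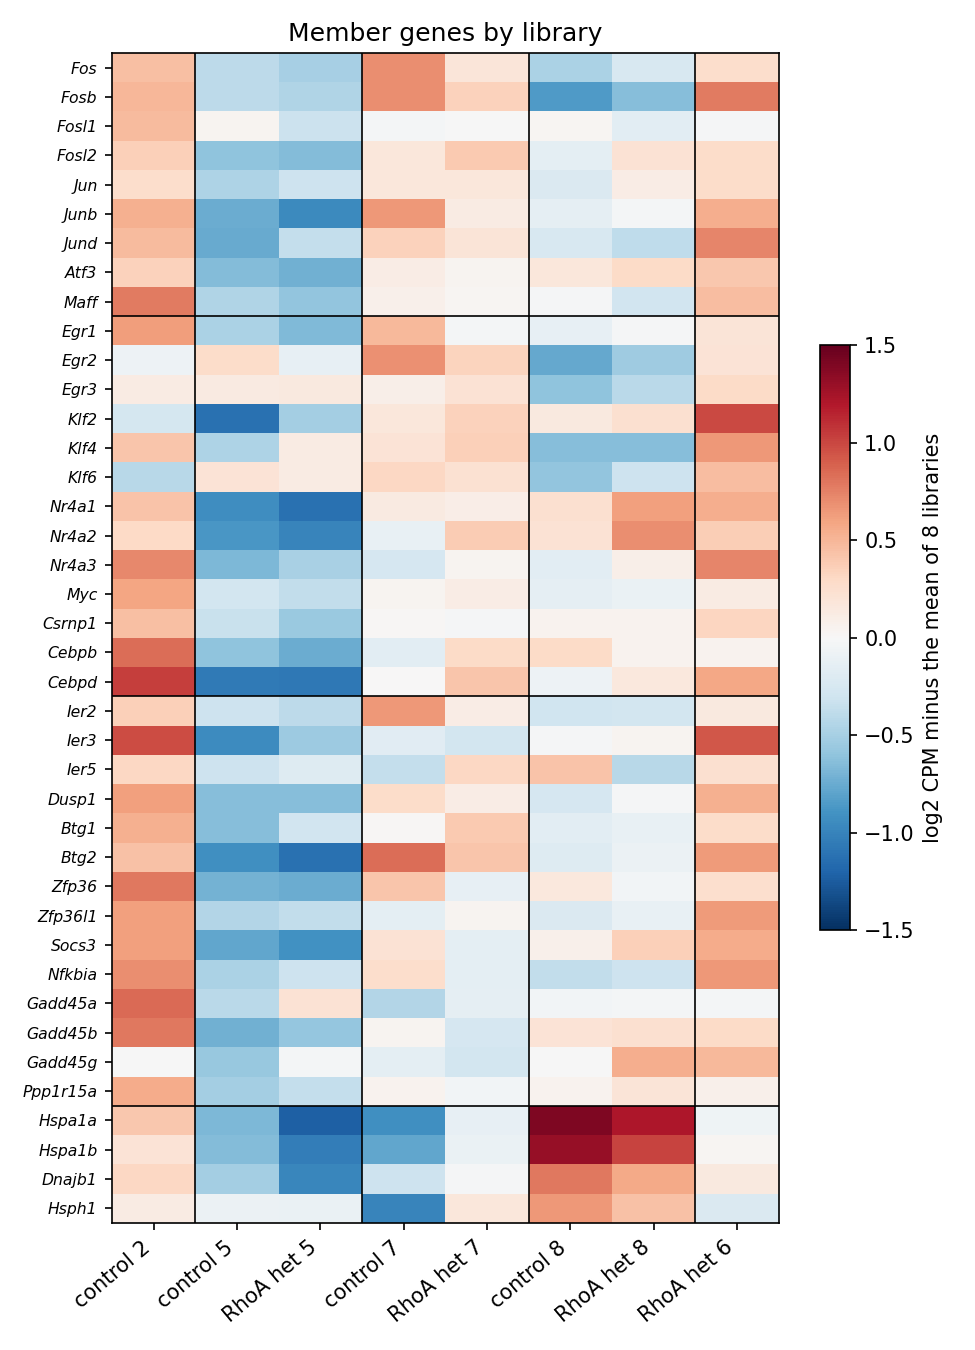
Log2 CPM of each of the 40 genes minus its mean over 8 libraries, with libraries ordered so that shared numbers stand together and lines between the 4 roles. The columns of both libraries numbered 5 are mostly blue, and the heat shock rows are red in both libraries numbered 8.

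Pairwise contrasts within that model give the direction. In number 7 against number 5, 19 members were higher and 0 lower (1.81% and 3.3% of all genes). Btg2 (ENSMUSG00000020423.7; mm39 chr1:134002908-134006858, minus strand), an antiproliferative protein that recruits RNA deadenylases, moved most. It stood at 1843, 723, 2427 and 1191 CPM (control) and 628, 2131, 1813 and 1278 CPM (RhoA het). Both libraries numbered 5 lay below the other 6, and number 7 exceeded number 5 by 1.64 (SE 0.17) on the log2 scale (number term adjusted p 0.000398 in edgeR). Cebpd (ENSMUSG00000071637.6; mm39 chr16:15705150-15708895, plus strand), a C/EBP factor of the acute response, stood at 1711, 400.0, 840.5 and 790.4 CPM (control) and 398, 1251, 1112 and 934 CPM (RhoA het). Again both libraries numbered 5 were lowest, and control 2 was highest; the rise from number 5 was 1.27 (SE 0.16) for number 7 and 1.10 (SE 0.16) for number 8 (adjusted p 0.000878 in edgeR). Btg2 still passed with either library numbered 5 left out. Cebpd did not pass without RhoA het 5 (adjusted p 0.0902 in edgeR), where number 7 exceeded number 5 by 1.12 (SE 0.24).

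In number 8 against number 5, 18 members were higher and 3 lower (6.13% and 4.38% of all genes). Nr4a1 (ENSMUSG00000023034.8; mm39 chr15:101152150-101172676, plus strand), an orphan receptor induced by many stimuli, stood at 1496, 586, 1222 and 1314 CPM (control) and 514, 1629, 1193 and 1715 CPM (RhoA het). Both libraries numbered 5 were lowest by a wide margin, and number 8 exceeded number 5 by 1.46 (SE 0.17) on the log2 scale (number term adjusted p 0.000847 in edgeR). Without RhoA het 5 that difference was 1.25 (SE 0.27) and the adjusted p 0.0916 in edgeR. Nr4a2 differed likewise, by 1.38 (SE 0.17). The 3 lower members were Egr2 at -0.71 (SE 0.17), Egr3 at -0.64 (SE 0.16) and Klf6 at -0.61 (SE 0.16).

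Numbers 7 and 8 also differed. Against number 7, number 8 had 3 members higher, Hspa1a, Hspa1b and Dnajb1, and 7 lower, Fos, Fosb, Egr2, Egr3, Klf4, Klf6 and Btg2 (3.33% of all genes were higher and 0.789% lower). Hspa1a was higher by 1.79 (SE 0.27) on the log2 scale, Hspa1b by 1.57 (SE 0.23) and Dnajb1 by 0.83 (SE 0.19). Without both libraries numbered 5, Hspa1a and Hspa1b kept an adjusted p under 0.05 in edgeR. Dnajb1 was then at an adjusted p of 0.131 and Btg2 at 0.119, with folds close to those of all 6 libraries and larger errors: number 8 minus number 7 was 0.82 (SE 0.23) for Dnajb1 and -0.79 (SE 0.21) for Btg2, beside -0.76 (SE 0.17) for Btg2 in all 6. Fosb was at -1.27 (SE 0.18), Egr2 at -1.15 (SE 0.17) and Klf4 at -0.91 (SE 0.17). Egr2, chosen here after its values were seen, stood at 369, 469, 626 and 229 CPM (control) and 357, 447, 489 and 268 CPM (RhoA het). Klf4, likewise chosen, stood at 211, 114, 182 and 101 CPM (control) and 172, 247, 202 and 101 CPM (RhoA het). The libraries numbered 8 were the lowest of all 8 for both genes. None of the members called in these 3 contrasts changed sign with total counts or TPM in place of TMM.

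**Figure D4:**
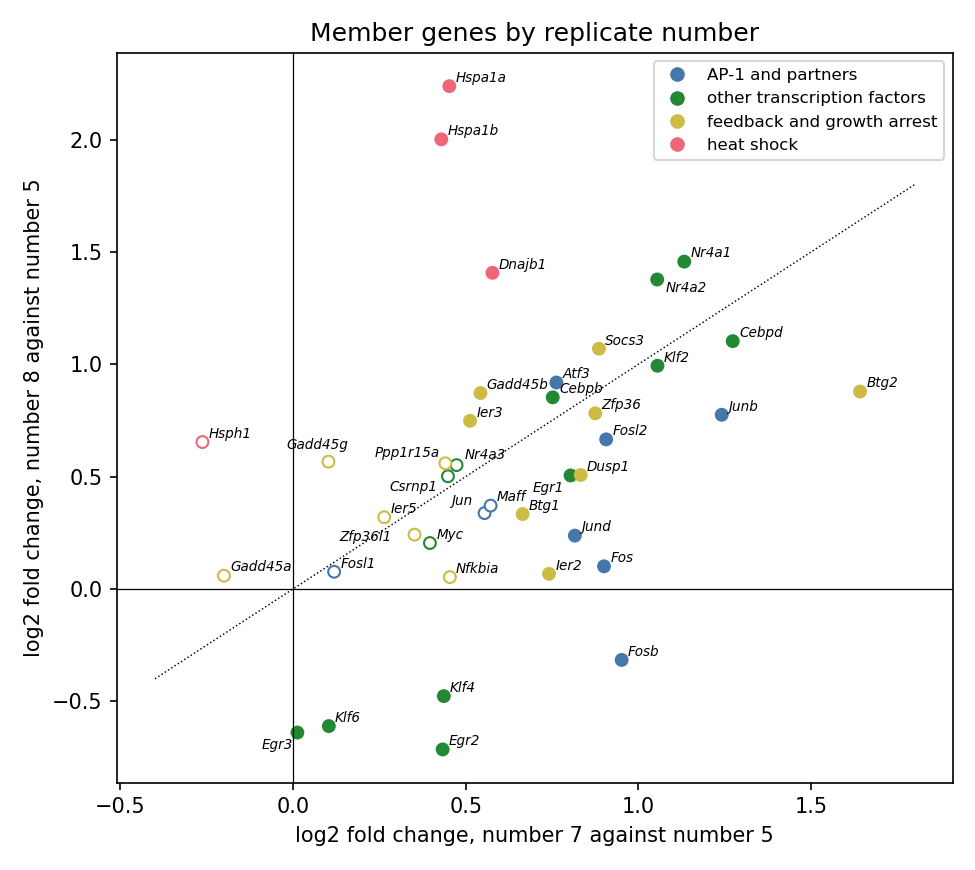
Log2 fold change of number 7 against number 5 (horizontal) and of number 8 against number 5 (vertical) for the 40 genes, coloured by role; filled points differ by number at an adjusted p under 0.05, and the dotted line marks equal change. The axes share number 5. Heat shock genes lie above the line, and Egr2, Egr3, Klf4, Klf6 and Fosb lie below 0 on the vertical axis.

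**Figure D5:**
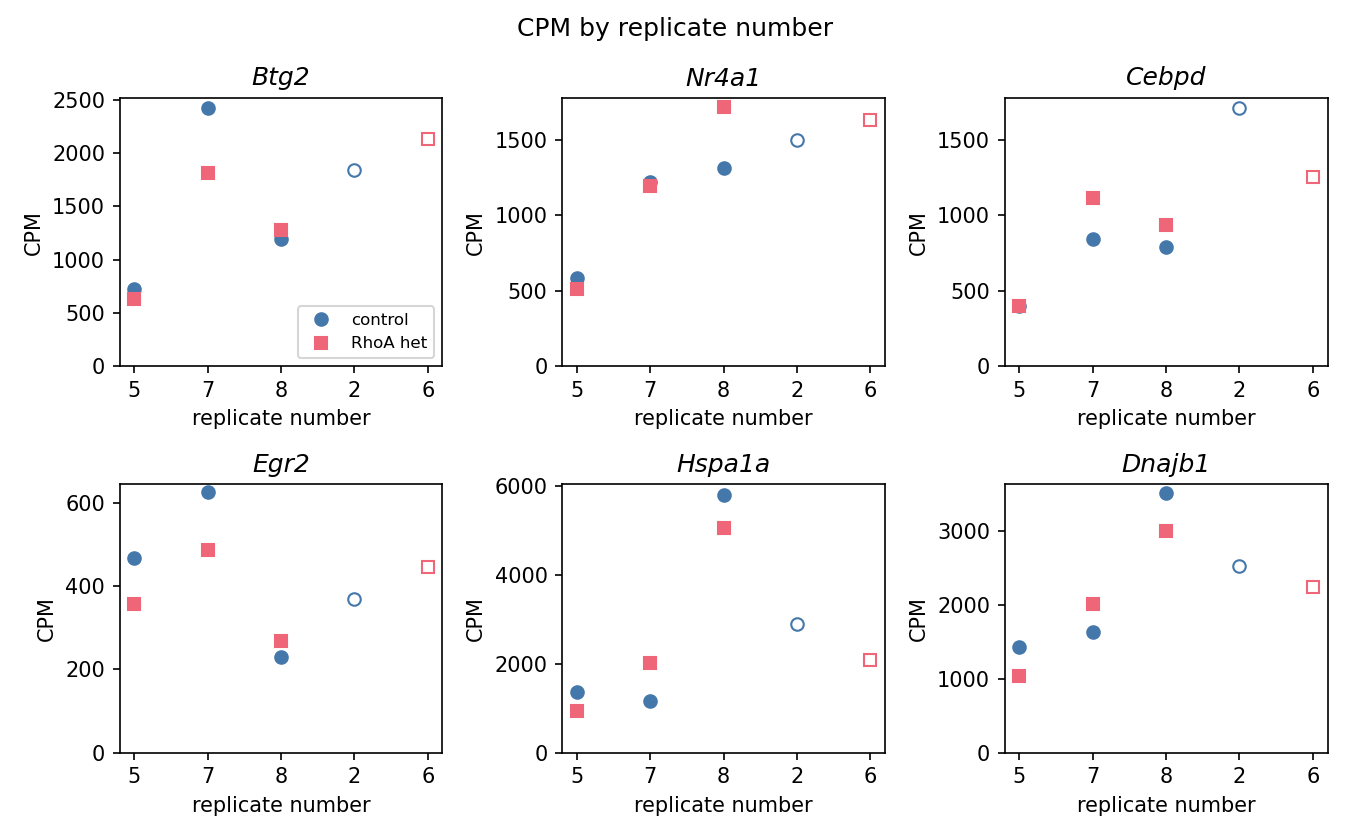
CPM of 6 members by replicate number, with control as circles and RhoA het as squares; open symbols are control 2 and RhoA het 6, whose numbers occur in 1 group only. Btg2, Nr4a1 and Cebpd are lowest in both libraries numbered 5, Egr2 is lowest and Hspa1a and Dnajb1 are highest in both libraries numbered 8.

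Control 2 and RhoA het 6 do not enter the number comparison. Either one of them held the highest CPM of all 8 libraries for 26 of 40 members (65.0%), beside 28.9% of all genes tested. Of these, 16 were in control 2 (40%, beside 15.5%) and 10 in RhoA het 6 (25%, beside 13.4%). For 34 members (85.0%) both lay above both libraries numbered 5, beside 25.4% of all genes. They have no same-numbered partner among the 8, and they are also the libraries with Y-linked fragments, so number and sex cannot be told apart for them. They also had the highest summed muscle stem cell markers, at 17339 and 17140 CPM, against 8972 to 12381 CPM in the other libraries. The part of cell composition in the member values was not tested. Leaving out control 2 moved the member median fold change to 0.13 and leaving out control 5 moved it to -0.22, without any member reaching an adjusted p under 0.05.

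Other genes of the same pathways were taken from 3 lists, with 88 of 89 listed genes found. Of 28 upstream kinases and constitutive factors (SRF, CREB and MAP kinases among them), 2 differed by number (7.14%, beside 11.3% of all genes), namely Crem and Map2k4. Crem, a CREB relative with inducible forms, stood at 226, 111, 144 and 164 CPM (control) and 127, 224, 199 and 213 CPM (RhoA het) (number term adjusted p 0.023 in edgeR). Map2k4, a kinase upstream of JNK, stood at 52.6, 45.6, 19.04 and 41.1 CPM (control) and 44.04, 31.4, 33.6 and 42.2 CPM (RhoA het) (adjusted p 0.0482 in edgeR). Crem was lowest in the libraries numbered 5 and Map2k4 was lowest in control 7. Neither passed without control 5, without RhoA het 5 or without both.

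Of 37 other induced feedback and delayed early genes, 10 differed by number (27.0%, beside 11.3% of all genes). Spry2, an inhibitor of receptor tyrosine kinase signalling, ran opposite to most members at 109.9, 219, 124 and 105 CPM (control) and 273, 137, 181 and 117 CPM (RhoA het) (adjusted p 0.00136 in edgeR), highest in both libraries numbered 5. Dusp10, a phosphatase of stress kinases, was also highest there, at 98.5, 218, 139 and 114 CPM (control) and 173, 131, 149 and 91.8 CPM (RhoA het). Per1, a clock gene inducible through CREB, stood at 132, 68.5, 127 and 79.9 CPM (control) and 47.3, 115, 118 and 76.3 CPM (RhoA het). Tnfaip3, an NF-kB target that restrains NF-kB, stood at 354, 291, 837 and 148 CPM (control) and 259, 801, 514 and 278 CPM (RhoA het), and number 8 was -1.67 (SE 0.29) against number 7. Spry1 stood at 83.6, 51.3, 74.9 and 28.04 CPM (control) and 39.6, 135, 71.6 and 41.6 CPM (RhoA het), lowest in number 8 of control and number 5 of RhoA het. The count of 10 fell to 4 without control 5 (3.77% of all genes), to 3 without RhoA het 5 (3.52%) and to 2, Spry1 and Tnfaip3, without both (2.31%).

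Of 23 other heat shock response genes, 8 differed by number (34.8%, beside 11.3% of all genes), and 14 of 23 were highest in number 8 of the 3 numbers in both groups, as the 4 heat shock members were (18.4% of all genes). Bag3, a co-chaperone and classic HSF1 target, stood at 2715, 1346, 1102 and 2714 CPM (control) and 1334, 1717, 1709 and 2483 CPM (RhoA het) (adjusted p 0.00946 in edgeR). Hspb8, its small heat shock partner, stood at 74.5, 35.3, 37.2 and 66.98 CPM (control) and 31.4, 64.5, 43.03 and 64.5 CPM (RhoA het). Cryab, another small heat shock protein, stood at 1774, 559, 138 and 1259 CPM (control) and 709.9, 374, 250.2 and 809 CPM (RhoA het), and number 8 exceeded number 7 by 2.47 (SE 0.29). Dnaja1 and Hspa2 also differed by number, with number 8 above number 5 by 0.52 (SE 0.15) and 0.71 (SE 0.14). Hspa5, another of the 8 and named after its values were seen, ran the other way, lowest in both libraries numbered 8. It stood at 12223, 11595, 18827 and 9790 CPM (control) and 11519, 16387, 13755 and 9316 CPM (RhoA het). Number 8 minus number 7 was -0.76 (SE 0.19). The count of 8 fell to 2, Hspb8 and Cryab, without control 5 (3.77% of all genes). It fell to 1, Cryab, without RhoA het 5 (3.52%) and without both (2.31%).

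None of the 88 pathway genes changed between the genotypes at an adjusted p under 0.05, either over 8 libraries or in the block fit (lowest adjusted p 0.643 in edgeR). At an unadjusted p under 0.05 there was 1 over 8 libraries, Elk3 (1.14%, beside 2.38% of all genes). In the block fit there were 7 (7.95%, beside 5.26%), of which 6 were higher and 1, Errfi1, lower in RhoA het. These, named after their values were seen, were Hspa4l, a chaperone of the HSP110 family (0.40, SE 0.12, unadjusted p 0.00668 in edgeR), Elk3, Errfi1, Crem, Spry2, Cited2 and Klf9.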

How the data were processed

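RNA from 8 mouse muscle stem cell libraries was prepared by template switching from low input, per the labels' protocols. The authors deposited whole fragment counts per gene, made with featureCounts 1.6.4 over GENCODE mouse release 34 exons on mm39, per the file headers; the counting command set no strand option. STAR, cutadapt and DESeq2 are named in the submitters' processing notes. The authors also deposited TPM values, which were recomputed from the counts and the gene lengths of the table (largest relative difference 1.5e-14). The header names 10 alignment files; 8 libraries were held, and the others were not analysed here.

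Low counts were removed with filterByExpr, leaving 15660 genes (15714 in the 6 paired libraries). Groups were compared with edgeR 4.0.16 (TMM, quasi-likelihood F test, Benjamini-Hochberg over all genes tested) in R 4.3.3, without covariates. The number term was tested in a model of number and group. Alternatives used DESeq2 1.42.0, limma 3.58.1, other scalings and filters, the replicate block and left-out libraries. The statistics were also run on simulated counts with the same relative spread for every gene. That setting is simpler than these libraries, so the run does not show how accurate the statistics are here. Single genes had a two-sided exact permutation test over 70 assignments, on log2 CPM with a prior count of 2. Numbers 5, 7 and 8 occur in both groups' titles, and deviations of same-numbered libraries from the group means correlated at 0.574, 0.349 and 0.500. The numbers were therefore taken as pairs, a choice made on the same data that the block fit and number term use. The mean over different numbers, -0.237, is no separate evidence. Deviations sum to 0 within each group, so that mean is largely fixed by the same-number correlations. Values per library are given for the 10 members highest in TPM, the 3 with the smallest p per direction, the 5 with the smallest p for the number term and the 4 heat shock genes. Pathway genes are named when past an adjusted p of 0.05, at most 5 per list. Genes marked as chosen or named after their values were seen are exceptions. The members and lists were chosen with earlier results of these data known. Promoter sequences are from RefSeq (GRCm38.p6).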

Additional observations from a re-analysis of the deposited data

Results flagged for a closer look

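Of 82 sets of 4 libraries examined for a library apart from the other 3, by the gap to the nearest library divided by the range of the 4 (Dixon's ratio at the 95% level), 4 passed, where chance gives about 4.1. Fosl1 in control 2 stood at 344 CPM against 242 to 254 CPM in the other controls (ratio 0.861). Fosl2 in RhoA het 5 stood at 495 CPM against 905 to 1023 CPM in the other RhoA het libraries (ratio 0.831). Egr3 in control 8 stood at 22.9 CPM against 36.8 to 38.1 CPM (ratio 0.934), and the RhoA het library of the same number, 8, was also the lowest of its group at 26.3 CPM. Nfkbia in RhoA het 6 stood at 2400.4 CPM against 1227 to 1374 CPM (ratio 0.832).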

How the results depend on the processing

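Over 19 alternatives, 0 members changed between the genotypes in each, and the member median fold change ranged from -0.053 to 0.0657 among scalings, tests, filters and blocks and from -0.218 to 0.131 with 1 library left out. At an unadjusted p under 0.05, Zfp36 passed without control 5 (0.0406) and Gadd45g without RhoA het 7 (0.0284) in edgeR. With the replicate block over 3 pairs, 2 genes changed instead of 0, neither of them a member. Klf6 turned to -0.016 in the same 6 libraries without the block. The causes of these changes were not tested. The number term called 2992 genes without the filter on low counts, 577 to 2295 with 1 library left out and 372 without both libraries numbered 5. Members called ranged from 6 to 31 with 1 library left out, were 5 without both libraries numbered 5, and 20 (limma on TPM) to 34 (no filter) otherwise. Of all genes, 9.02% were called by limma on TPM and 9.52% without the filter. The 20 members called by limma on TPM were all among the 27. With RhoA het 5 left out, the adjusted p was 0.0902 for Cebpd, 0.0901 for Dnajb1 and 0.0916 for Nr4a1. Without both libraries numbered 5, Dnajb1 was at 0.131 with number 8 above number 7 by 0.82 (0.83 in all 6). Hsph1 passed in 4 settings (no filter, and without control 7, RhoA het 7 or RhoA het 8). Fits that leave out a library of a number assume that the lone library varies like the others. Interval widths in the 8-library fit allow changes over 2-fold for 7 members.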
